A study of Mus musculus with 8 samples.

Results

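The promoters of the genes for cytosolic ribosomal proteins were followed through 4 ChIP-seq peak lists of differentiating C2C12 cells. Members were all protein-coding genes of the GENCODE annotation of mm9 named Rpl or Rps with digits and at most 1 further letter, together with Rplp0, Rplp1, Rplp2 and Rpsa, and without pseudogenes. The rule found 80 of 22372 protein-coding genes, of which 48 encode proteins of the large subunit and 32 of the small subunit, and it used no peak. A gene was counted in a list when the center of an interval lay within 1 kb of a transcription start site (TSS) of one of its protein-coding transcripts.

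C2C12 is a mouse myoblast line derived from C3H muscle that fuses into myotubes when serum is lowered. The cells had differentiated for 24 h, either untreated (Ctl) or in 50 nM bexarotene (Bex), an agonist selective for the retinoid X receptor, and chromatin was precipitated for myogenin or for p300, with 1 library for each factor and condition. Myogenin is a basic helix-loop-helix factor that binds E-boxes at muscle genes, and p300 is a histone acetyltransferase recruited to promoters and enhancers. Peak lists accompany 4 of the 8 samples, and the input and H3K27me3 libraries were not used here.

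The lists give positions only, so a gene with an interval had a peak called at its promoter, and how strong that peak was is unknown. They hold 5912 (Myog Ctl), 6642 (Myog Bex), 22051 (p300 Ctl) and 9154 (p300 Bex) intervals, so the p300 list was much shorter with bexarotene. Since each condition has 1 library, replicate error is unknown and tests between conditions were not made. Wilson intervals (95%) are given for shares and Newcombe intervals (95%) for their differences, and both cover counting error over genes or intervals only. As a check of the lists, 4 and 5 of 6 muscle genes (Myog, Ckm, Actc1, Chrna1, Myh3 and Tnnt2) had a myogenin interval within 10 kb of a TSS in control and bexarotene. For p300 the numbers were 4 and 3. Ckm had no interval in any list. The share of all genes within this distance is not given, so these counts have no background.

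Ribosomal proteins assemble with ribosomal RNA into the large and small subunits of the ribosome, and their genes are transcribed in nearly every cell, at high rates and in step with each other. Their promoters are compact, lie in CpG-rich DNA and commonly start transcription within a short run of pyrimidines. Factors of the Ets family, Yy1 and Sp1 are known to act at many of them, and myogenin is not counted among their usual regulators.

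The promoters of Rpl27, Rps7, Rpl26 and Rpl3 are shown because they held a p300 interval in both conditions. Each line runs from 200 bases before to 30 bases from the outermost TSS, 5′ to 3′ on the strand of the gene. Capitals mark matches, on either strand, to CCGGAA (the Ets core, which reads as TTCCGG on the other strand), GGGCGG (the Sp1 box), ATGGCG (the Yy1 core), TGACG (the Atf/Creb core, CGTCA on the other strand) and the E-boxes. The E-boxes counted were CAGCTG, which reads alike on either strand, and its relative CACCTG, which reads as CAGGTG on the other strand. In mm9 they lie at chr11:101303412-101303641 (plus strand), chr12:29320789-29321018 (minus strand), chr11:68714885-68715114 (plus strand) and chr15:79913807-79914036 (minus strand).
Rpl27: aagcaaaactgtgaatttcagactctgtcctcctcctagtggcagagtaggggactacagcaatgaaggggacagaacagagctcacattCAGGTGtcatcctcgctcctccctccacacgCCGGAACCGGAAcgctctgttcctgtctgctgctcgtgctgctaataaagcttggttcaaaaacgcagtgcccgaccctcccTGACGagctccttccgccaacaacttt
Rps7: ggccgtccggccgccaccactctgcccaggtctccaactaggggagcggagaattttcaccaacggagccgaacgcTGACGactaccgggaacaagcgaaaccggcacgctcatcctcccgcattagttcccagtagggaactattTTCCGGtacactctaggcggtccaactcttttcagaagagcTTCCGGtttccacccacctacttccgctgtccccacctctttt
Rpl26: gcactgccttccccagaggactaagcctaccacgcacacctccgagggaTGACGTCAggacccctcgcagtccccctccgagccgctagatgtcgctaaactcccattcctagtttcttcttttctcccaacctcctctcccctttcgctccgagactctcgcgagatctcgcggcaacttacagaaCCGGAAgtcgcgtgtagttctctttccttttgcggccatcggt
Rpl3: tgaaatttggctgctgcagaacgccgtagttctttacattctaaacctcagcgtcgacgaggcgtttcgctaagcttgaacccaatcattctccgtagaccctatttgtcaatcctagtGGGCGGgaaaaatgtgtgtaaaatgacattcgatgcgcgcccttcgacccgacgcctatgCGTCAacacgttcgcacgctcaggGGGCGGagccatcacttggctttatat
Rpl27 holds CCGGAA side by side at -79 and -73, counted from the TSS to the first base of the match, and TGACG at 4. Rps7 holds the Ets core at -54 and -13, and Rpl26 holds it at -13. Rpl3 holds no Ets core in this stretch and has the Sp1 box at -81 and 4. A match describes the letters and does not show that a factor bound there.

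p300 intervals were found at the promoters of 19 ribosomal protein genes in control (23.8%, Wilson 15.8 to 34.1) and 18 with bexarotene (22.5%, 14.7 to 32.8). The background over all 22372 genes was 10.6% for control and 5.23% for bexarotene. The share was thus 13.2 percentage points above that of the 22292 other genes in control (Newcombe 5.17 to 23.6) and 17.3 points above it with bexarotene (9.56 to 27.6). The ratio of the shares was 2.24 in control and 4.35 with bexarotene. Among other genes the number with a p300 interval fell to 0.488 of the control number, while among ribosomal protein genes it was 0.947 of it. That near-constant number rested on intervals of the smallest length in each list, without which 15.0% of ribosomal protein genes had p300 in control and 6.25% with bexarotene.

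Myogenin intervals were few at these genes. They were found at 6 genes in control (7.5%, 3.48 to 15.4) against a background of 6.05%, and at 7 with bexarotene (8.75%, 4.30 to 17.0) against a background of 3.72%. In control the share differed from that of other genes by 1.46 points (-2.57 to 9.38), an interval that includes 0. With bexarotene the difference was 5.04 points (0.590 to 13.3). Against other genes with a promoter GC content of at least 55% it was 3.27 points, with an interval that included 0. That cut was not applied to the ribosomal protein genes. The interval of the difference also included 0 with windows of 500 bp and 2 kb and with the outermost TSS only.

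**Figure D1:**
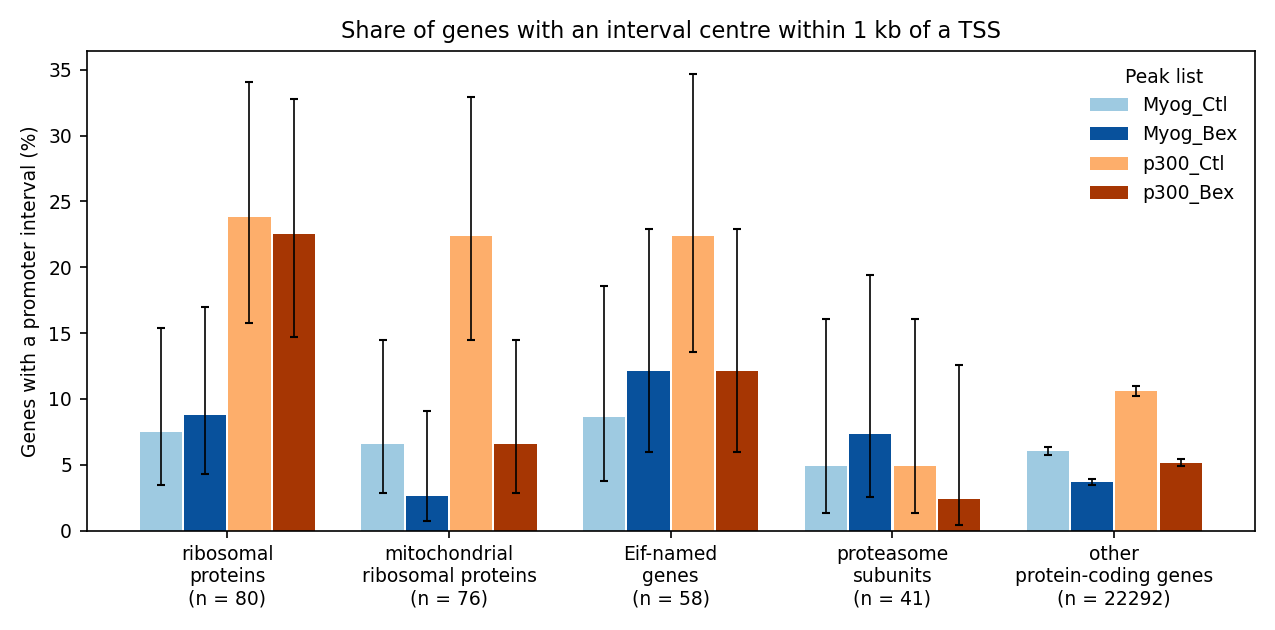
Percentage of genes with an interval within 1 kb of a TSS (y axis) for ribosomal protein genes, 3 other gene sets and all other protein-coding genes (x axis), with the 4 peak lists as colors and 95% Wilson intervals as black lines. Ribosomal protein genes stand at 23.8% and 22.5% in the p300 lists, against 10.6% and 5.17% of other genes.

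Of the 80 genes, 35 (43.8%) had an interval in at least 1 list, against a background of 17.9%. An interval in exactly 1 list was held by 21 genes, in 2 lists by 13 and in 3 lists by 1, which was Rpl10a. No ribosomal protein gene was in all 4 lists, as were 67 other genes (0.301%). The remaining 45 genes had none. In other gene sets, an interval in at least 1 list was held by 43.1% of genes named Eif with a digit and 55.6% of 9 named Eef. Lower shares were held by genes for mitochondrial ribosomal proteins (28.9%), ribosome biogenesis (29.2%), aminoacyl-tRNA synthetases (22.2%) and proteasome subunits (17.1%). Other genes with a promoter GC content of at least 55% stood at 26.3%.

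The genes with a p300 interval were spread over both conditions. Of 28 such genes, 10 had it in the control list only (35.7%, 20.7 to 54.2), 9 in both lists (32.1%, 17.9 to 50.7) and 9 in the bexarotene list only (32.1%). Of the 2846 other genes with a p300 interval, 59.5% had it in control only, 23.4% in both and 17.1% in bexarotene only. Without intervals of the smallest length, 64.3% of the ribosomal protein genes with p300 were in control only. For other genes these classes are given with all intervals only. Over all 22372 genes the classes made up 7.62%, 3.02% and 2.21%.

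Genes with p300 in both conditions included Rpl3, Rpl10a, Rpl26 and Rpl27 of the large subunit and Rps3a, Rps7, Rps12 and Rps27l of the small subunit. Rpl3 reaches toward the site of peptide bond formation, Rpl10a forms part of the mobile stalk beside the site where emptied tRNA leaves, and Rpl26 lies near the exit of the peptide tunnel. Rps12 belongs to the head of the small subunit. Rps27l is a paralog of Rps27 induced by p53, and Rps27 itself had no interval in any list.

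Genes with p300 in control only were Rpl7, Rpl7a, Rpl13a, Rpl18, Rpl22, Rpl32, Rpl36a, Rps6, Rps14 and Rps23. Rps6 is the ribosomal protein phosphorylated by S6 kinases downstream of mTOR. Rps14 is part of the platform of the small subunit, and Rps23 lies at the decoding center.

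Genes with p300 in bexarotene only were Rpl5, Rpl6, Rpl10, Rpl11, Rpl36, Rpl38, Rps3, Rps15a and Rps20. Rpl5 and Rpl11 enter the ribosome together and, when free, bind the p53 ligase Mdm2. Rpl10 joins the large subunit at the last steps of its maturation, Rpl38 is known for selective translation of Hox mRNAs, and Rps3 lines the entry of the mRNA channel.

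The genes with a myogenin interval were classed by condition as well. Of 12 genes, 5 had the interval in control only (41.7%), 6 in bexarotene only (50.0%) and Rpl8 alone in both (8.33%, 1.49 to 35.4). For other genes these shares were 53.8%, 24.7% and 21.5% of 1789, and over all genes the classes made up 4.33%, 2.00% and 1.72%. The control-only genes included Rpl7, Rpl10a, Rpl19 and Rpl34, and the bexarotene-only genes included Rpl7a, Rpl13a, Rpl23a, Rpl38 and Rps29. The number of genes with bexarotene was 7 against 6 in control, and the order turned with a window of 500 bp (5.0% against 7.5% of genes) and with the outermost TSS only (6.25% against 7.5%).

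Proteins of the large and small subunits were compared next. p300 intervals stood at 11 of 48 large-subunit genes in control (22.9%) and 10 with bexarotene (20.8%), and at 8 of 32 small-subunit genes (25%) in each condition. Myogenin intervals stood at 6 large-subunit genes in control (12.5%) and 5 with bexarotene (10.4%). No small-subunit gene had one in control, for which the Wilson interval reaches 10.7%, and 2 had one with bexarotene (6.25%), among them Rps29. Of the 4 members whose expression is tissue-restricted or induced, Rpl3l (a muscle paralog of Rpl3), Rpl10l (a testis paralog of Rpl10) and Rpl39l had no interval, and Rps27l had p300 in both conditions.

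**Figure D2:**
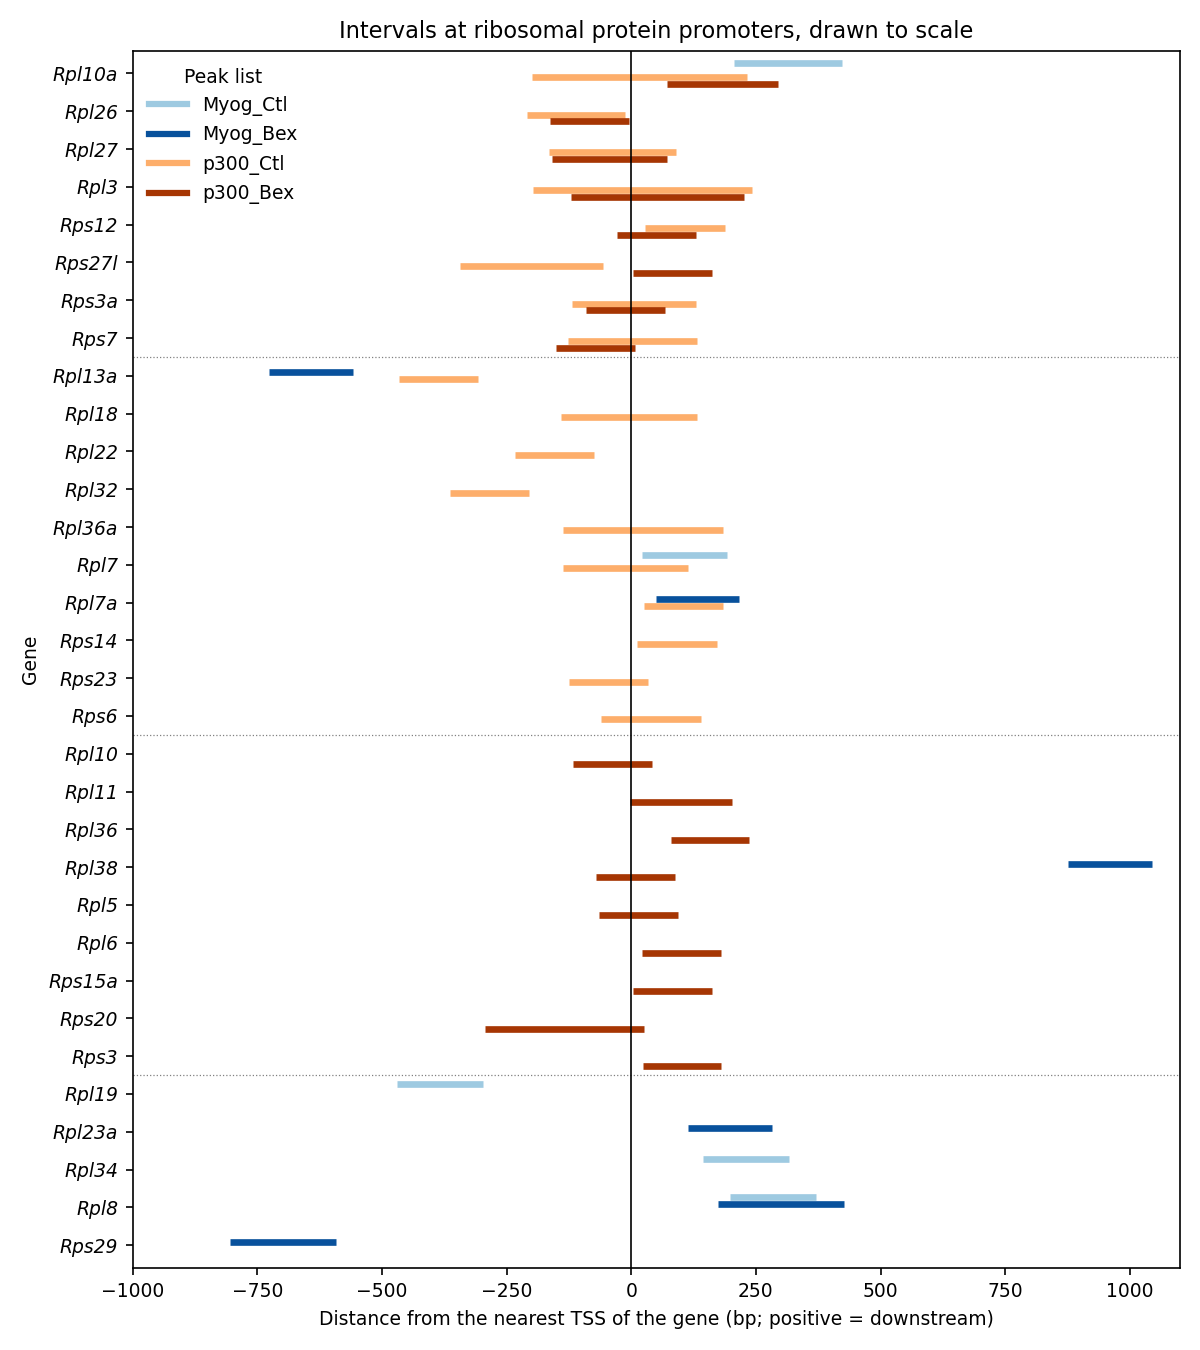
Position of the intervals at ribosomal protein genes named in the text, as distance from the nearest TSS of the gene in bp (x axis). Each row is 1 gene, the 4 lists are in separate colors and bars span the intervals. Rows are grouped as p300 in both lists, control only, bexarotene only and myogenin only, and of the p300 intervals drawn those of Rpl32 and Rpl13a are centered more than 200 bp from the TSS.

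p300 intervals lay at an annotated start site, taken as the nearest one of the gene. In control the median distance of the center from the nearest TSS was 2.00 bp (quartiles -78.5 and 27, negative values upstream), and 17 of 19 intervals were within 200 bp (89.5%, 68.6 to 97.1) against 61.2% for other genes. With bexarotene the median was 32.5 bp (-41.8 and 95.8), and all 18 were within 200 bp (Wilson from 82.4%) against 68.2%. Centers were downstream of the TSS in 52.6% of control and 61.1% of bexarotene intervals (38.6 to 79.7), against 42.4% and 34.1% for other genes. Of the 37 centers, 16 were upstream, 13 in the untranslated part of exon 1 and 8 in intron 1.

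The control intervals of genes with p300 in both conditions were centered close to the TSS in most cases. Centers were at 22 bp for Rpl3, 16 bp for Rpl10a, 5 bp for Rps3a, 2 bp for Rps7 and -37 bp for Rpl27. Those of Rps12, Rpl26 and Rps27l lay farther off, at 108, -111 and -200 bp.

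With bexarotene the same genes had centers at 53 bp for Rpl3, 183 bp for Rpl10a, -11 bp for Rps3a, -72 bp for Rps7 and -43 bp for Rpl27. Rps12 was at 51 bp, Rpl26 at -83 bp and Rps27l at 83 bp. In 8 of 9 genes the intervals of the conditions overlapped. The exception was Rps27l, whose centers were 288 bp apart on either side of the TSS.

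Intervals of genes with p300 in control only included that of Rpl18 at -4 bp, Rpl7 at -12 bp, Rpl36a at 23 bp, Rps6 at 39 bp, Rps23 at -46 bp and Rps14 at 92 bp. Rpl7a had its center at 105 bp and Rpl22 at -154 bp. Rpl32, at -284 bp, and Rpl13a, at -387 bp, were the p300 intervals more than 200 bp from a TSS. The Rpl13a interval lies upstream of an inner start of the gene only, inside the gene as measured from its outermost TSS. The Rpl18 interval lies at an inner start of Rpl18 and its center is 65 bp from the TSS of Sphk2, and the Rpl7a intervals are 192 and 220 bp from that of Med22. For every interval the nearest TSS was that of the ribosomal protein gene.

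Intervals of genes with p300 in bexarotene only were centered at 8 bp for Rpl38, 14 bp for Rpl5, -38 bp for Rpl10, 83 bp for Rps15a and 102 bp for Rps3. Those of Rpl6 and Rpl11 were both at 100 bp, that of Rpl36 at 158 bp and that of Rps20 at -133 bp.

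**Figure D3:**
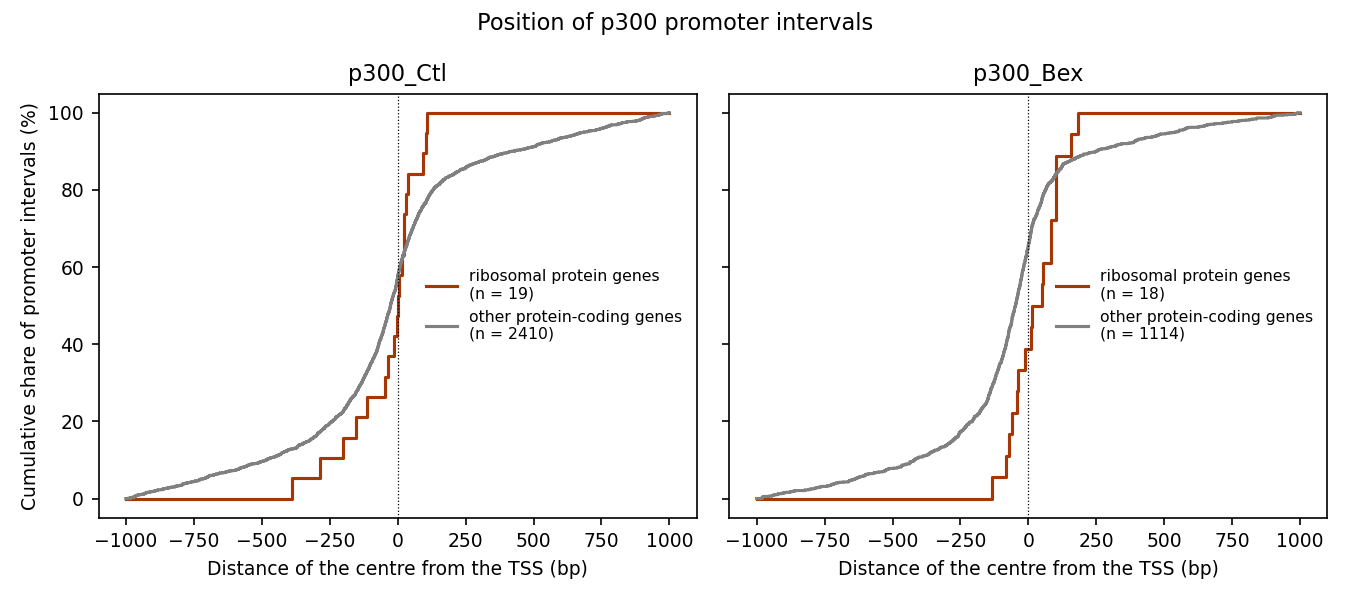
Cumulative percentage of promoter intervals (y axis) by distance of the center from the nearest TSS of the gene in bp (x axis), for ribosomal protein genes and other genes in the 2 p300 lists. Within 200 bp lie 89.5% and 100% of the intervals of ribosomal protein genes and 61.2% and 68.2% of those of other genes.

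Interval length is the one measure of size the lists hold. Each list has a smallest length, 159 bp for p300 in control and 158 bp with bexarotene, at which 34.3% and 48.9% of all its intervals stand. At ribosomal protein genes the control intervals had a median of 248 bp and 7 of 19 were at the smallest length (36.8%, 19.1 to 59.0), against a median of 159 bp and 54.0% for other genes. With bexarotene 13 of 18 were at the smallest length (72.2%), against 65.7%, and the median was 158 bp for ribosomal protein and other genes alike.

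For genes with p300 in both conditions the intervals had medians of 258 bp in control and 158 bp with bexarotene. At 6 of these 9 genes the bexarotene interval was at its list's smallest length, which is below that of the control list, so the order of the lengths was fixed there. The longest was that of Rpl3, of 440 bp in control (chr15:79913595-79914034) and 347 bp with bexarotene (chr15:79913610-79913956). Rpl10a followed with 431 and 223 bp, and Rps12 was at the smallest length in both lists. Genes with p300 in control only had a median of 159 bp, ranging from 159 to 321 bp, with 6 of 10 at the smallest length. Those in bexarotene only had a median of 158 bp, ranging from 158 to 319 bp, with 7 of 9 at the smallest length. Whether the calls would recur in another library was not tested.

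When only intervals longer than the smallest length were kept, the differences from other genes were 10.0 and 4.46 points (0.909 to 12 for bexarotene).

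Myogenin intervals lay within 200 bp of the start site in 33.3% of cases in control and 28.6% with bexarotene, near the 29.7% and 31.5% of other genes. Centers were downstream in 83.3% (43.6 to 97.0) and 57.1%, against 56.8% and 50.1%. Of the 13, 4 were centered within 200 bp and 9 were downstream, 6 of them in intron 1. Medians were 170 bp in control and 133 bp with bexarotene. In control the centers included those at 107 bp for Rpl7, 230 bp for Rpl34, 284 bp for Rpl8, 315 bp for Rpl10a and -384 bp for Rpl19. With bexarotene they included those at 133 bp for Rpl7a, 198 bp for Rpl23a, 300 bp for Rpl8 and 960 bp for Rpl38, in its intron 3. Upstream centers included that of Rps29 at -699 bp. The Rpl13a center was at -642 bp from the same inner start as its p300 interval, inside the gene, and is not counted with the outermost TSS only. At the smallest length were 5 of 6 intervals in control and 4 of 7 with bexarotene, against 67.9% and 68.7% for other genes.

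Rpl8, which lies next to the site of peptide bond formation, was the one gene with myogenin in both conditions, in the coding part of exon 2 (chr15:76734700-76734871 in control, chr15:76734675-76734927 with bexarotene). The interval was 172 bp long in control, the smallest length, and 253 bp with bexarotene.

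E-boxes were then counted in these intervals. None of the 13 myogenin intervals held CAGCTG or CACCTG within 50 bp of the center or anywhere in the interval. At other genes 22.6% of promoter intervals in control and 33.0% with bexarotene held one within 50 bp. With 6 and 7 intervals, the Wilson intervals of these zeros are wide. The central 100 bases of the Rpl8 control interval and the Rpl7a interval are shown, on the strand of the gene, since they are the sequence under a myogenin call without these E-boxes. Capitals mark CACGTG (the E-box known for Myc) in addition to the matches named for the promoters, at chr15:76734736-76734835 (plus strand) and chr2:26766368-26766467 (plus strand).
Rpl8: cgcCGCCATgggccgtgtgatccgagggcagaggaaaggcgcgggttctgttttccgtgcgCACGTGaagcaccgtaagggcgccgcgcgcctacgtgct
Rpl7a: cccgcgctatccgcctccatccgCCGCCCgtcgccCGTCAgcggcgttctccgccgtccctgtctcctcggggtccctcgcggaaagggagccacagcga
Rpl8 holds CACGTG near the middle, in the control as in the bexarotene interval. Rpl7a holds the Sp1 box and the Atf/Creb core on the other strand.

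Of the 37 p300 intervals 1 had an E-box within 50 bp of the center, at Rps20 with bexarotene (5.56% of 18, against 14.0% for other genes), and none did in control (against 13.7%). Over the whole interval 4 held one, at Rpl27 in both conditions and at Rpl38 and Rps20 with bexarotene. That made 5.26% of control and 16.7% of bexarotene intervals, and the shares were the same within 100 bp of the center. For other genes the shares are given within 50 bp only. The central 100 bases of the Rps20 interval, at chr4:3762896-3762995 (minus strand), are shown for its E-box within 50 bp of the center, with CACCTG in capitals.
Rps20: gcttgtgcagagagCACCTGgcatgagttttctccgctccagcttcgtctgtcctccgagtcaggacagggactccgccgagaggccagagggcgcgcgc
The Rps20 interval, of 319 bp, was the longest among genes with p300 in bexarotene only.

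Other matches in the p300 intervals were counted within 100 bp of the center. The Atf/Creb core TGACG occurred in 47.4% of control intervals (27.3 to 68.3) against 19.1% at other genes, and in 44.4% of bexarotene intervals (24.6 to 66.3) against 24.0%. The Ets core CCGGAA occurred in 26.3% against 16.9% in control and in 50.0% (29 to 71) against 19.2% with bexarotene. The Sp1 box GGGCGG stood at 47.4% in both gene groups in control and at 33.3% against 53.9% with bexarotene. The Yy1 core ATGGCG stood at 15.8% against 10.1% and at 22.2% against 9.43%. These intervals had a median GC content of 59.0% in control and 62.0% with bexarotene, against 64.5% and 65.5% at other genes.

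**Figure D4:**
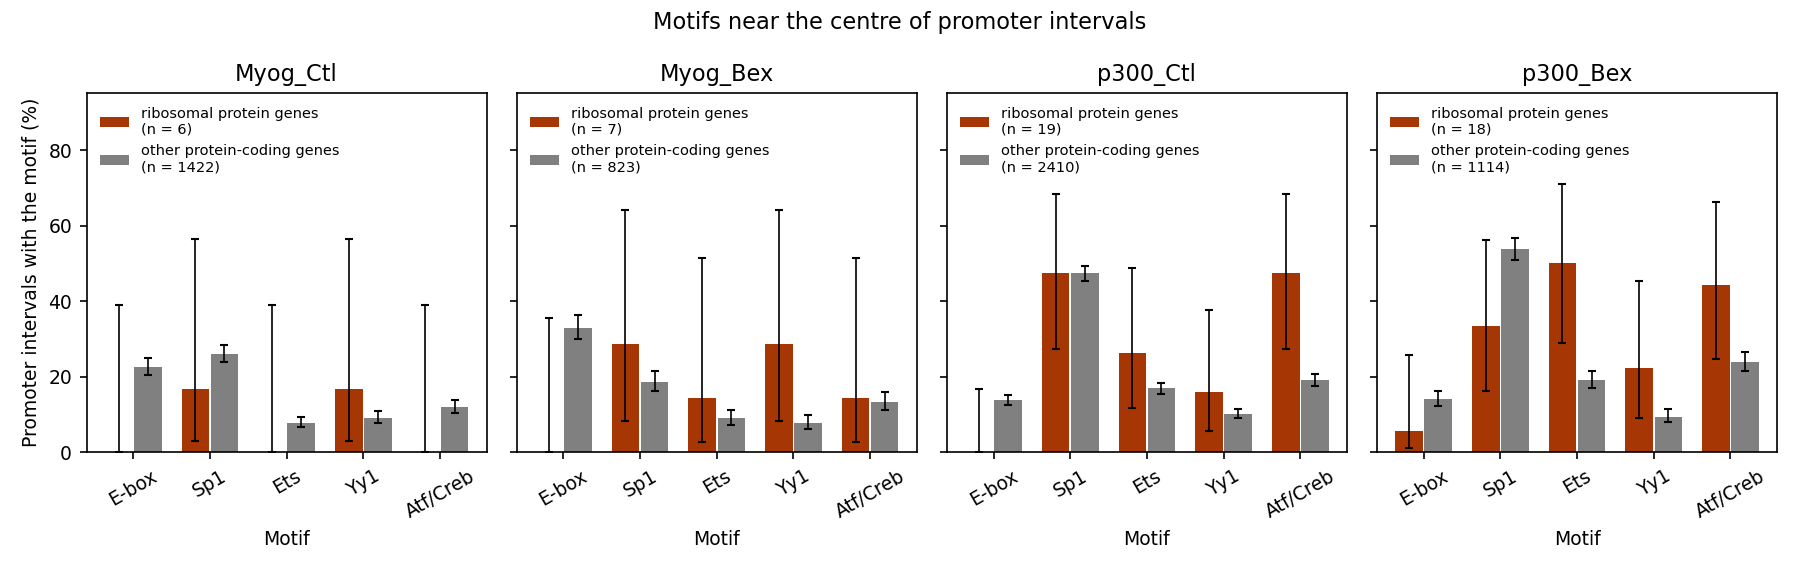
Percentage of promoter intervals holding a motif (y axis) by motif (x axis), for ribosomal protein genes and other genes, with 1 panel per list and 95% Wilson intervals as black lines. E-boxes of the myogenin type are counted within 50 bp of the center and the other motifs within 100 bp; they stand at 0 in both myogenin lists for ribosomal protein genes.

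The same letters were counted in all promoters, bound or not, from 200 bases before to 30 bases from the outermost TSS, a stretch of 230 bases. Ribosomal protein genes held CCGGAA in 36.2% (26.6 to 47.2) against 15.4% of other genes, and TGACG in 42.5% (32.3 to 53.4) against 20.1%. The genes for mitochondrial ribosomal proteins also held them often, CCGGAA in 47.4% (36.5 to 58.4) and TGACG in 34.2% (24.5 to 45.4). E-boxes were in 13.8% (7.85 to 23.0) against 25.1%. GGGCGG was in 42.5% against 41.3%, ATGGCG in 13.8% against 7.63% and CACGTG in 8.75% against 6.49%. The pyrimidine run CTTTC on the strand of the gene was within 50 bp of the TSS in 28.8% (20 to 39.5) against 11.6%, a window chosen after seeing that 10 bp gave 2.50% against 2.31%. Over a stretch of 300 bases, from 250 before to 50 after the outermost TSS, the median GC content was 55.3% in both groups. The ratio of observed to expected CpG in that stretch was 0.844 against 0.540, and 0.821 for mitochondrial ribosomal protein genes.

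Promoters of genes with and without a p300 interval were then set side by side, over the same stretch of 230 bases at the outermost TSS. A p300 interval counted at any TSS of the gene, so this stretch need not lie under it. At Rpl18 the interval was at an inner start, outside the stretch, and its Ets and Atf/Creb cores were not counted. Among the 28 ribosomal protein genes with a p300 interval in either list, CCGGAA was in 39.3% (23.6 to 57.6), TGACG in 35.7% (20.7 to 54.2) and GGGCGG in 39.3%. Among the 52 without, the shares were 34.6% (23.2 to 48.2), 46.2% (33.3 to 59.5) and 44.2%. CACGTG was in 0 of the 28 (Wilson up to 12.1%) and in 7 of the 52 (13.5%, 6.68 to 25.3). For these motifs the Wilson intervals of the groups overlapped, and the median GC content over the 300 bases was 55.7% and 55.2%.

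Both factors were called at 5 ribosomal protein genes in some condition. In control these were Rpl7 and Rpl10a, 33.3% of the 6 genes with myogenin against 31.8% for other genes, and in both the myogenin interval overlapped that of p300, as it did at 147 of the 428 other genes with both factors. With bexarotene it was Rpl38, 14.3% of 7 genes against 19.9%, with p300 at the TSS and myogenin in intron 3, and the intervals did not overlap, while they did at 75 of the 164 other genes. Rpl7a and Rpl13a had p300 in control and myogenin with bexarotene. At Rpl7a these intervals, chr2:26766310-26766468 and chr2:26766334-26766501, overlapped.

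Other genes of protein synthesis were read the same way. Of 76 genes for mitochondrial ribosomal proteins, 17 had a p300 interval in control (22.4%) and 5 with bexarotene (6.58%), a ratio of 0.294. Cytosolic ribosomal protein genes differed from them by 1.38 points in control (-11.9 to 14.4) and by 15.9 points with bexarotene (4.83 to 26.9). Genes named Eif with a digit had p300 at 13 of 58 in control (22.4%) and 7 with bexarotene (12.1%), and ribosomal protein genes differed from them by 1.34 points (-13.3 to 15.0) and 10.4 points (-2.88 to 22.4). The name takes in initiation factors and also genes such as the kinase Eif2ak4, the Argonaute gene Eif2c1 and the inhibitor Eif4ebp2. Of 9 genes named Eef with a digit, which are elongation factors and include the kinase Eef2k, Eef1a1 had p300 in control, and Eef1a1, Eef1b2 and Eef2 had it with bexarotene, where ribosomal protein genes differed from them by -10.8 points (-43.0 to 12.8). Aminoacyl-tRNA synthetases had it at 4 and 1 of 18 genes, and with bexarotene the difference was 16.9 points (-4.70 to 28.2). Ribosome biogenesis genes had it at 3 and 3 of 24, with a difference of 10.0 points (-10.1 to 23.1) with bexarotene. For the Eif, Eef, synthetase and biogenesis genes these intervals included 0.

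Proteasome subunit genes, taken by name (Psma, Psmb, Psmc or Psmd with digits), had p300 at 2 of 41 genes in control (4.88%) and 1 with bexarotene (2.44%). The share of ribosomal protein genes was higher by 18.9 points (5.07 to 29.8) and 20.1 points (7.28 to 30.5). Against all other genes with a promoter GC content of at least 55%, the differences were 8.43 points (0.414 to 18.8) in control and 14.8 points (7.0 to 25.1) with bexarotene. The cut was not applied to the ribosomal protein genes, whose median GC content was 55.3%, so the groups were not matched for it. Among genes that encode a ribosomal protein under another name, Fau had a myogenin interval in control and Gnb2l1 had a p300 interval in control.

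The 45 ribosomal protein genes without an interval included, for the large subunit, Rpl3l, Rpl4, Rpl9, Rpl10l, Rpl12, Rpl13, Rpl14, Rpl15, Rpl17, Rpl21, Rpl23, Rpl24, Rpl27a, Rpl28, Rpl29, Rpl30, Rpl31, Rpl35, Rpl35a, Rpl37, Rpl37a, Rpl39, Rpl39l, Rplp0, Rplp1 and Rplp2. For the small subunit they included Rps2, Rps4x, Rps9, Rps10, Rps13, Rps15, Rps16, Rps18, Rps19, Rps21, Rps24, Rps25, Rps26, Rps27, Rps27a, Rps28 and Rpsa. They include the stalk proteins Rplp0, Rplp1 and Rplp2, which recruit elongation factors, and Rpsa, also known as a laminin receptor.

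Ribosomal protein genes have many processed copies in the genome, to which reads may align as well. In windows of 500 bp to either side of the TSS, the median share of 50-base stretches found once in mm9 was 99.6%, and 72 of 80 genes had at least 90%. Exact matches alone were counted, so a copy with a changed base does not enter. The p300 reads were aligned with mismatches allowed, and placement of such reads was not tested. The lowest was Rps29, at 64.2%. The median was 100% for genes with an interval and 98.9% for those without, and 100% within the intervals of each list. The lowest interval was that of Rpl10a for myogenin, at 82.1%. None of the 106 annotated pseudogenes named for a ribosomal protein was overlapped by an interval in any list (Wilson up to 3.50%).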

How the data were processed

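Myogenin and p300 ChIP-seq peak lists of C2C12 cells were analysed, 1 library for each factor and condition. The authors aligned myogenin reads with BWA and p300 reads with Bowtie to mm9, took out duplicates by Picard, and ran HOMER peak calling library by library. The deposited values are positions (chromosome, start, end), with no tag counts, so the depth of each library is not known from them and the calling threshold could not be varied.

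Intervals were assigned to genes by their center, within 1 kb of 46028 distinct protein-coding TSS records (GENCODE, mm9), in place of RefSeq. Sequences came from the mm9 genome of the same build. Members and gene lists were chosen with earlier results of these data known. Genes with intervals in 2 or more lists were named by rule, and the rest to account for members. Some members enter the counts but are not reported here by name. Alternatives changed the TSS window (500 bp, 2 kb), the TSS set, the smallest-length intervals and the background genes. Python 3.11.15 was used with numpy 2.4.6, scipy 1.17.1, pysam 0.24.0 and matplotlib 3.10.9. Functions were tested on simulated data in 3 steps of 200 items, and 3 were recovered.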

Additional observations from a re-analysis of the deposited data

How the results depend on the processing

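Of 170 values under alternative settings, 157 stayed within the interval of the main value and 13 moved. Most of the 13 came from keeping only intervals longer than the smallest length, which leaves fewer intervals: the shares of genes became 1.25% (Myog Ctl), 3.75% (Myog Bex), 15.0% (p300 Ctl) and 6.25% (p300 Bex), and the p300 Bex difference became 4.46 points. Under the same setting 64.3% of p300 genes were in control only, 0 myogenin genes were in both lists, 100% of Myog Ctl centers were downstream and p300 was at 100% of myogenin genes in control, both from 1 interval at 1 gene (Wilson from 20.7%), and p300 was at 0 of them with bexarotene. That last share was also 0 with a window of 500 bp and with the outermost TSS only. When only other genes with an interval within 50 kb were the background, the differences became -2.73 (Myog Ctl), 2.48 (Myog Bex), 5.86 (p300 Ctl) and 13.8 points (p300 Bex). That setting filtered the other genes on having an interval and not the ribosomal protein genes, so it could only lower the differences, and nothing is read from it. The Myog Ctl difference was also below 0 without the smallest intervals (-0.818) and against genes of high GC content (-2.06), and its interval included 0 in the main and all alternative settings. The Myog Bex difference had an interval that included 0 under 4 other settings: 3.27 points against genes of high GC content, 3.07 with the outermost TSS, 2.65 with a window of 500 bp and 3.66 with 2 kb. The cut on GC content was applied to the other genes only. No paired analysis was possible because each group has 1 library, and for the same reason no replicate could be left out. Tag numbers are not in the lists, so a missing interval may be a promoter below the authors' threshold.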

Other observations

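The nearest interval center lay 1 to 10 kb from a TSS for 2.50% of them in each myogenin list, against 6.19% (Ctl) and 7.36% (Bex) of other genes. For p300 these shares were 5.00% against 11.1% in control and 3.75% against 6.01% with bexarotene. They stand for 2 to 4 genes in each list, and the difference was not tested. From 1 to 50 kb the shares were 30% against 22.0% (Myog Ctl), 35.0% against 24.9% (Myog Bex), 45.0% against 37.8% (p300 Ctl) and 27.5% against 25% (p300 Bex), the other way round. The median distance to the nearest interval was 26.0 kb for p300 in control and 51.7 kb with bexarotene, against 53.8 and 118 kb for other genes. For myogenin it was 78.1 and 76.2 kb, against 148 and 137 kb. These are descriptions of gene surroundings, and the part of gene density in them was not tested.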
